A study of Mus musculus with 21 samples.

Results

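The interferon regulatory factor (IRF) family is described here through 8 genes, Irf1, Irf2, Irf3, Irf4, Irf5, Irf7, Irf8 and Irf9. They were taken by name from the 23250 genes of the deposited expression table, after the Ensembl identifiers had been matched to mouse symbols, and each had exactly 1 row. All 8 passed the filter on low counts. The cells were macrophages grown from the bone marrow of C57BL/6J mice for 7 days in medium that carried GM-CSF from a producing cell line. The series describes them as lacking the mannose receptor (MR). They were either left untreated (0 h) or were given FcMR, in which the extracellular region of MR is fused to the Fc part of human IgG1, or an isotype control, for 4, 12 or 24 h. Each of the 7 groups holds 3 libraries, 21 in all. The labels do not say whether the 3 libraries of a group come from separate mice or cultures, so p-values measure the spread between these libraries, which may be technical. The series addresses the effect of soluble MR on macrophages.

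IRFs are transcription factors that share an N-terminal DNA-binding domain and bind GAAA repeats, among them the interferon-stimulated response element (ISRE). Irf3 and Irf7 are activated by phosphorylation downstream of nucleic acid sensors and some Toll-like receptors and drive interferon genes. Interferon signals through its receptor to ISGF3, a complex that holds Stat2 and Irf9, which switches on antiviral genes and Irf7 itself. Irf1 and Irf2 bind overlapping sites, Irf1 as an activator and Irf2 mainly as its antagonist. Irf5 drives inflammatory cytokine genes, Irf4 is tied to alternative macrophage activation and dendritic cells, and Irf8 is a lineage factor of monocytes and dendritic cells. RNA level is only one layer of this control, since the activity of several of these proteins is set by phosphorylation and movement into the nucleus.

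Library totals ran from 5532225 to 66729533 estimated counts, so that 3 counts correspond to between 0.045 and 0.542 CPM before scaling, where CPM is the count of a gene scaled to a common library size. Levels below are CPM after scaling of the libraries by TMM (trimmed mean of M-values). Macrophage and monocyte markers summed to 21199 to 36038 CPM in every library, most of it Lyz2 (median 22539 CPM). Mrc1, the gene of MR, had 0 to 11 counts per library. Markers of conventional dendritic cells, which also use Irf4 and Irf8, went in their summed level from 3457 to 3783 CPM in untreated libraries to 1776 to 1928 CPM in isotype 24 h libraries and 1664 to 2097 CPM in FcMR 24 h libraries. That sum was mostly H2-Ab1 and Itgax, with medians over the libraries of 1312 and 1079 CPM. Flt3, Zbtb46, Xcr1 and Clec9a of the same list had medians of 19.4, 30.3, 1.32 and 6.45 CPM. The neutrophil and progenitor list went from 667 to 786 CPM in untreated libraries to 109 to 119 CPM with isotype at 24 h and 149 to 160 CPM with FcMR. For the plasmacytoid dendritic cell, a cell type with high Irf7, the defining markers Siglech, Ly6d and Klk1 reached at most 1.77 CPM. The sum of that list of 6 genes was nevertheless 81.7 to 90.2 CPM in FcMR 4 h and 40.8 to 47.5 CPM in isotype 4 h libraries, nearly all of it Tcf4. In bulk RNA a change in the number of cells of a type cannot be told apart from a change in RNA per cell, and the part of these marker changes in the results below was not tested.

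The sequence just upstream of the start is shown for the members whose window held a motif match and for Irf7, whose RNA moved most. Windows of 300 bases, 250 before and 50 after a start, came from RefSeq (GRCm38.p6). They were searched for 3 motifs on both strands: the ISRE core (GAAA, any 2 bases, GAAA), the STAT-binding GAS element TTCNNNGAA, which reads alike on both strands, and the consensus of NF-kB, referred to as kB. Over all 32851 promoter windows of the table, 3.44% held the ISRE core, 8.3% the GAS element and 8.46% the kB consensus. The bases below are those of the gene's window that lie in no annotated exon, 5' to 3' on the gene's strand, with motif matches in capitals.
Irf1, chr11:53769764-53770013, plus strand: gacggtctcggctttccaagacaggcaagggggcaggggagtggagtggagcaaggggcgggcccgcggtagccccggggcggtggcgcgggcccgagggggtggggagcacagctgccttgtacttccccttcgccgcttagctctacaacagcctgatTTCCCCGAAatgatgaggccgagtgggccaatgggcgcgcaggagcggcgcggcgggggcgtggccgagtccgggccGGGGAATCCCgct
Irf2, chr8:46739516-46739731, plus strand: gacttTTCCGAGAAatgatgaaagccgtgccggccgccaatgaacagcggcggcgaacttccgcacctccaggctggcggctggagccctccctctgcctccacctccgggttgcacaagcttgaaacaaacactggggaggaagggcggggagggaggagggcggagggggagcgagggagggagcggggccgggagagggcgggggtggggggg
Irf8, chr8:120736108-120736357, plus strand: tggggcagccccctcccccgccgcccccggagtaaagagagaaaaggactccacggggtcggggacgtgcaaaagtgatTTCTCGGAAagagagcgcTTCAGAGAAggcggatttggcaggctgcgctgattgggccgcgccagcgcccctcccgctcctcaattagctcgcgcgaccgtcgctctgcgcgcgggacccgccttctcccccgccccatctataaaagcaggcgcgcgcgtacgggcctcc
Irf7, chr7:141266482-141266674, minus strand: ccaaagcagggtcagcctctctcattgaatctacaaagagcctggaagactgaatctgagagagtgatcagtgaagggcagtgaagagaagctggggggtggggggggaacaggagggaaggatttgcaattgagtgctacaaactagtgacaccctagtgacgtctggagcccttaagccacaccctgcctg

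Counting the start base as 0, the Irf1 window held the GAS match TTCCCCGAA at -90 to -82 and the kB match GGGGAATCCC at -13 to -4. The Irf2 window held the GAS match TTCCGAGAA at -224 to -216, and it also held the ISRE match GAAAATGAAA at -241 to -232, outside the stretch shown, and the kB match GGGGATTTCC at -17 to -8, of which only the first bases lie in that stretch, in lower case. The first window of Irf8 held the GAS matches TTCTCGGAA at -171 to -163 and TTCAGAGAA at -153 to -145. No match to these letters was found in the windows of Irf3, Irf4, Irf5, Irf7 and Irf9, or in the second windows of Irf1 and Irf8. These matches describe the letters only and say nothing of binding.

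Isotype-treated cells already differed from untreated cells in most of the family. Untreated libraries exist at 0 h only. In isotype against untreated, the isotype control therefore cannot be told apart from time in culture. FcMR differed from isotype in several members, but not always in the direction of the isotype step. Irf4 was lower with isotype than untreated and higher with FcMR than isotype at every time. Irf2 at 24 h was higher with isotype than untreated and lower with FcMR than isotype. In isotype 4 h against untreated libraries, 7 of the 8 genes passed the test (edgeR's quasi-likelihood test, Benjamini-Hochberg adjusted p under 0.05 over 13468 genes), 5 higher and 2 lower, where 35.6% of all genes tested passed (20.4% higher and 15.2% lower). At 12 h 6 passed (5 higher, 1 lower), with 41.6% of all genes (22% higher, 19.6% lower), and at 24 h 6 passed (4 higher, 2 lower), with 42.2% of all genes (21.3% higher, 20.9% lower). In isotype against untreated, 6, 8 and 6 of the 8 genes had non-overlapping groups at 4, 12 and 24 h, where 42.4%, 61.8% and 62.7% of all genes were apart. In FcMR against isotype, 6 of the 8 passed at 4 h, all of them higher, where 17.7% of all genes passed, 8.62% as higher and 9.13% as lower. At 12 h 2 passed, both higher, where 16.1% of all genes passed (8.61% higher, 7.49% lower). At 24 h 3 passed, 2 higher and 1 lower, where 20.9% of all genes passed (11.4% higher, 9.44% lower). FcMR and isotype libraries did not overlap for 6 of the 8 genes at 4 h (29.7% of all genes), 5 at 12 h (35.4%) and 7 at 24 h (34.4%). The median log2 fold change of the 8 genes in FcMR against isotype was 0.52, 0.03 and 0.24 at 4, 12 and 24 h, beside -0.07, -0.02 and 0.01 over all genes. The isotype libraries stand in both kinds of comparison, so the 2 fold changes of a gene at one time are not independent.

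**Figure D1:**
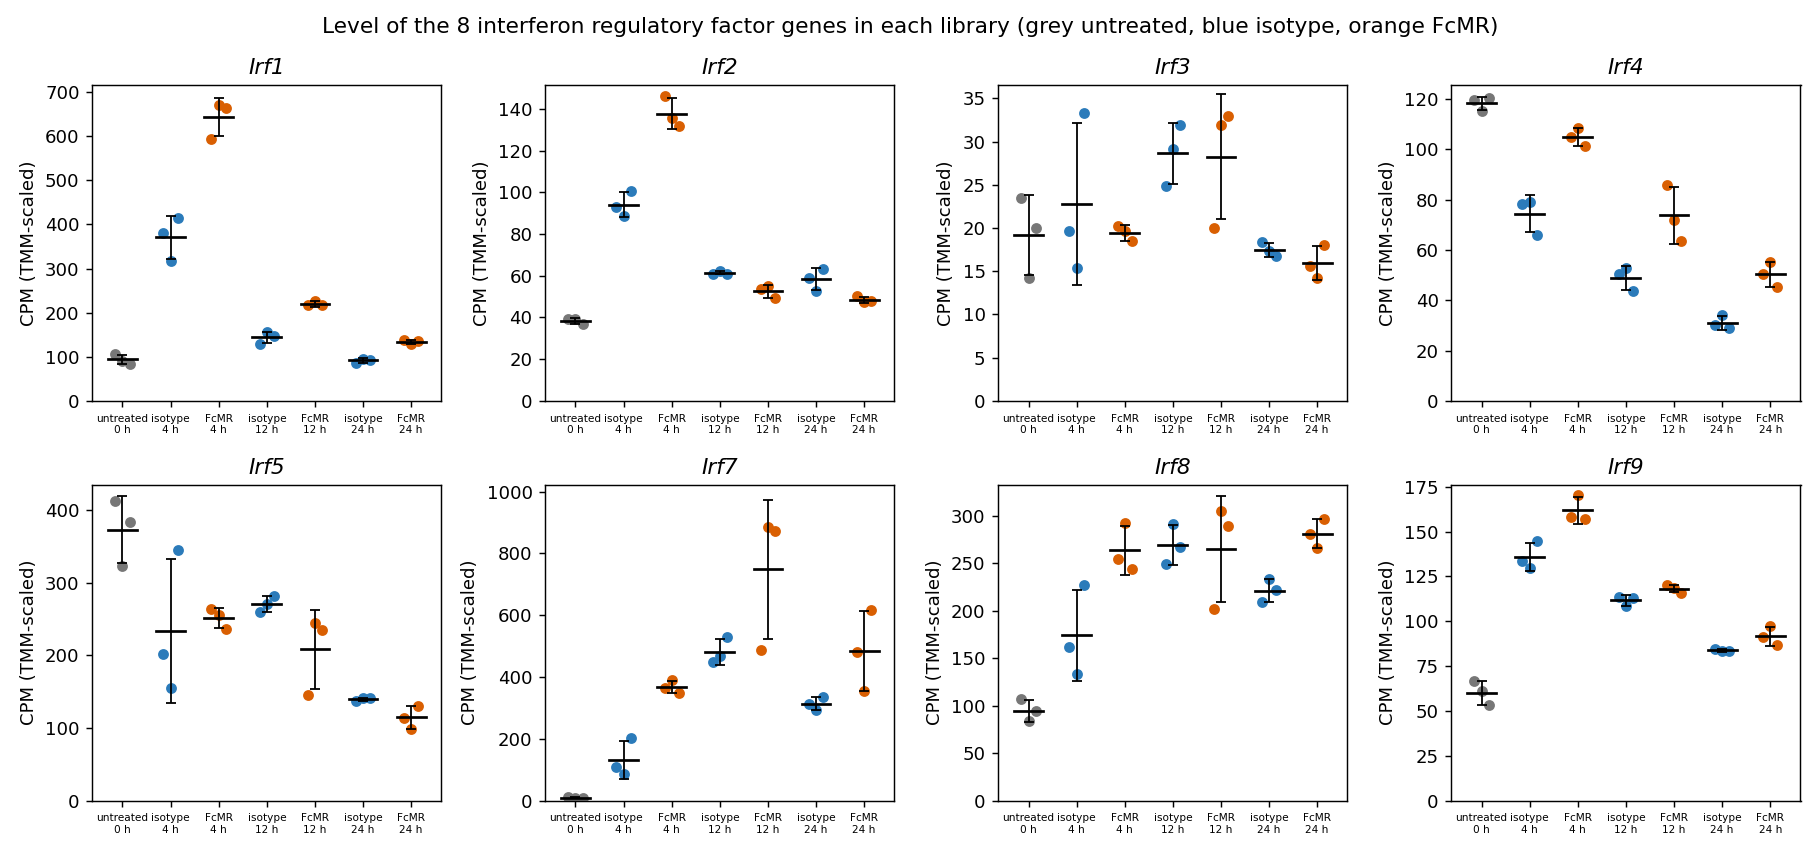
Level in CPM after TMM scaling (vertical axis, linear, from 0) of each of the 8 genes in the 21 libraries, by group (horizontal axis). Points are libraries, horizontal bars the mean and error bars the SD of 3 libraries. Irf1 and Irf2 peak at 4 h, Irf4 and Irf5 are highest in untreated cells, and Irf7 goes from a mean of 9.12 CPM untreated to 749 CPM with FcMR at 12 h.

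**Figure D2:**
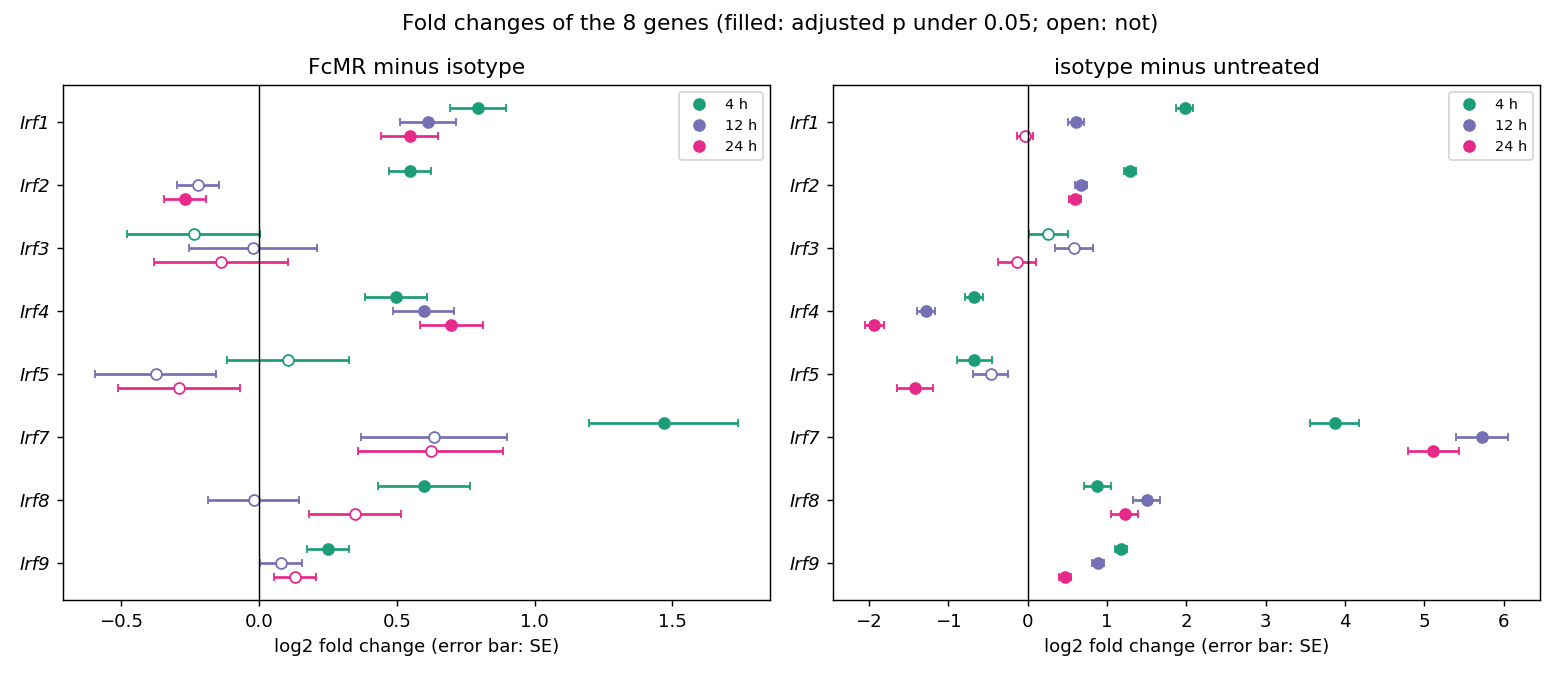
Log2 fold change with its standard error (horizontal axis) of the 8 genes (vertical axis) at 4, 12 and 24 h, FcMR minus isotype on the left and isotype minus untreated on the right. Filled points passed at an adjusted p under 0.05. The panels have different scales: Irf7 reaches 5.73 on the right and 1.47 on the left.

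Irf1, the activator induced by interferon-gamma and NF-kB signals (chr11:53770014-53778374, plus strand, GRCm38), was highest at 4 h and higher with FcMR than with isotype at every time. Untreated libraries held 106, 91.3 and 84.4 CPM. At 4 h the isotype libraries held 380, 317 and 414 CPM and the FcMR libraries 594, 671 and 665 CPM. The lowest FcMR library thus lay above the highest isotype library, and both groups lay above all untreated ones. At 12 h the values were 130, 155 and 146 CPM with isotype and 216, 227 and 217 CPM with FcMR, and at 24 h 86.2, 95.9 and 92.9 CPM against 137, 129 and 136 CPM, again without overlap. The log2 fold change of FcMR against isotype came to 0.79 ± 0.10 (SE, adjusted p = 2.7e-05) at 4 h, 0.61 ± 0.10 (adjusted p = 0.000277) at 12 h and 0.55 ± 0.10 (adjusted p = 0.000695) at 24 h, by edgeR's test. Against untreated cells the isotype group was higher by 1.98 ± 0.10 at 4 h and 0.62 ± 0.10 at 12 h and within the spread at 24 h (-0.03 ± 0.10, adjusted p = 0.822, edgeR). At 24 h the isotype libraries overlapped the untreated ones, and all 3 FcMR libraries lay above them.

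Irf2, the antagonist of Irf1 at shared sites (chr8:46739732-46847458, plus strand), was higher with FcMR at 4 h and lower at 24 h. Its untreated level was 39.3, 39.1 and 36.8 CPM. At 4 h it stood at 92.9, 88.8 and 101 CPM with isotype and at 146, 135 and 132 CPM with FcMR, so FcMR was higher without overlap (0.55 ± 0.08, adjusted p = 6.54e-05, edgeR). At 12 h the order was turned, with 60.9, 62.2 and 61.0 CPM with isotype and 53.8, 55.0 and 49.1 CPM with FcMR. This difference did not pass (-0.22 ± 0.08, adjusted p = 0.0579, edgeR), although the groups did not overlap. At 24 h isotype libraries held 58.8, 52.7 and 63.3 CPM and FcMR libraries 50.1, 47.3 and 47.8 CPM, and Irf2 was lower with FcMR by a small margin (-0.27 ± 0.08, adjusted p = 0.018, edgeR). Leaving out isotype 24 h replicate 1 or 3 or FcMR 24 h replicate 2 ended that 24 h call, with adjusted p of 0.0579, 0.108 and 0.0599, and so did fitting only the libraries compared (0.134), the authors' factors (0.12) and no filter (0.111). Tested jointly, the FcMR effect on Irf2 differed over the 3 times (adjusted p = 8.12e-05, edgeR, 13468 genes, of which 11% passed), and this held in all 28 alternative settings. Irf2 was the only member to pass that joint test with all libraries. Without isotype 4 h replicate 3, Irf5 (adjusted p = 0.0318), Irf7 (0.0116) and Irf8 (0.0218) passed it too, where 2322 of 13468 genes did. After GC correction, described below, Irf7 passed it as well, where 23.1% of genes did. Irf1 did not pass it (adjusted p = 0.483), nor did Irf4 (0.712).

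Among the interferon-loop members, Irf3 showed no called change. This constitutively made factor responds to TBK1 phosphorylation (chr7:44997648-45002848, plus strand). Untreated libraries held 23.4, 14.3 and 20.02 CPM. The isotype libraries held 19.7, 15.3 and 33.3 CPM at 4 h and the FcMR libraries 20.2, 19.7 and 18.4 CPM, so the FcMR group lay inside the wide isotype range. At 12 h the ranges were 24.9 to 31.9 CPM with isotype and 19.96 to 32.9 CPM with FcMR, and at 24 h 16.7 to 18.3 CPM and 14.2 to 18.04 CPM. The FcMR effects had 95% intervals from -0.71 to 0.24 at 4 h, -0.48 to 0.43 at 12 h and -0.62 to 0.34 at 24 h on the log2 scale, which leaves room for moderate changes either way. In the isotype group Irf3 was above untreated at 12 h without overlap, at an adjusted p of 0.0551 (log2 0.59 ± 0.24, edgeR), and it passed in 9 of 16 alternative settings.

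Irf7, the interferon-inducible partner of Irf3 (chr7:141262706-141266481, minus strand), had the largest changes of the family. Untreated libraries held 10.8, 8.33 and 8.26 CPM. At 4 h it reached 108, 86.8 and 203 CPM with isotype and 365, 390 and 349 CPM with FcMR. All FcMR libraries lay above all isotype libraries, but isotype replicate 3 stood well above the other two. The isotype group was 14.7-fold above untreated at 4 h (log2 3.87 ± 0.31), 53.1-fold at 12 h (5.73 ± 0.33) and 34.6-fold at 24 h (5.11 ± 0.32), all past the test. FcMR was higher than isotype at 4 h by 1.47 ± 0.27 (2.77-fold, adjusted p = 0.000911, edgeR). At 12 h isotype libraries held 448, 469 and 529 CPM and FcMR libraries 488, 886 and 871 CPM, where FcMR replicate 1 fell within the isotype range. At 24 h the values were 312, 292 and 337 CPM against 481, 355 and 616 CPM, without overlap. Neither later difference passed (0.63 ± 0.26, adjusted p = 0.123 at 12 h, and 0.62 ± 0.26, adjusted p = 0.112 at 24 h, edgeR). Without FcMR 12 h replicate 1 the 12 h difference was 0.87 and passed (adjusted p = 0.0229). Under the authors' factors both later differences passed (0.72, adjusted p = 0.00548, and 0.76, adjusted p = 0.00306).

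Irf9, the DNA-binding subunit of ISGF3 (chr14:55603571-55610030, plus strand), followed a flatter course. It stood at 66.5, 61.1 and 53.1 CPM in untreated libraries, at 134, 130 and 145 CPM with isotype at 4 h and at 158, 170 and 157 CPM with FcMR at 4 h. The isotype group stayed above untreated at every time, by 1.18 ± 0.08, 0.89 ± 0.08 and 0.48 ± 0.08 on the log2 scale at 4, 12 and 24 h, and each passed. The FcMR libraries lay above the isotype libraries without overlap at each time, yet the step was small. At 4 h it was 0.25 ± 0.08 and passed (adjusted p = 0.029, edgeR), and at 12 h (0.08 ± 0.08) and 24 h (0.13 ± 0.08) it did not (adjusted p = 0.587 and 0.272). The 4 h call was lost without isotype 4 h replicate 1 (adjusted p = 0.0894) and without any one of FcMR 4 h replicates 1, 2 and 3 (0.0569, 0.143 and 0.0528), and in a fit of only the libraries compared (0.176).

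Irf5, which drives inflammatory cytokine genes (chr6:29526625-29541871, plus strand), was higher in untreated than in isotype 24 h cells. Untreated libraries held 413, 323 and 384 CPM. At 24 h the isotype libraries held 137, 141 and 141 CPM and the FcMR libraries 114, 99.3 and 130 CPM, all far below untreated. Isotype against untreated gave a fall of -0.67 ± 0.22 at 4 h (adjusted p = 0.0244, edgeR), where isotype libraries ran from 155 to 345 CPM and overlapped with untreated ones, and of -1.42 ± 0.22 at 24 h (adjusted p = 5.88e-05). The 4 h call was lost without isotype 4 h replicate 1 or 2 or without untreated replicate 1 or 3 (adjusted p = 0.1, 0.0752, 0.0852 and 0.0608). No FcMR effect on Irf5 passed, at 0.10 ± 0.22, -0.38 ± 0.22 and -0.29 ± 0.22 for 4, 12 and 24 h. Without FcMR 12 h replicate 1 and isotype 4 h replicate 3 the 4 h effect was 0.50 and passed (adjusted p = 0.00826). FcMR libraries nevertheless lay below all isotype libraries at 12 h (146, 244 and 235 against 260, 271 and 281 CPM) and at 24 h.

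Irf4, a factor of alternative activation and of dendritic cells (chr13:30749226-30766976, plus strand), was below its untreated level in both arms, and at every time it was higher with FcMR. Its untreated level was 120, 115 and 120 CPM. With isotype it was 78.3, 79.0 and 66.0 CPM at 4 h, 50.4, 52.7 and 43.5 CPM at 12 h, and 30.0, 34.2 and 29.0 CPM at 24 h. With FcMR it was 105, 108 and 101 CPM, then 85.7, 72.0 and 63.5 CPM, then 50.4, 55.2 and 45.4 CPM. At no time did the 2 arms overlap, and each FcMR group lay below all untreated libraries. The FcMR difference was 0.50 ± 0.11 (adjusted p = 0.00422) at 4 h, 0.60 ± 0.11 (adjusted p = 0.000847) at 12 h and 0.70 ± 0.11 (adjusted p = 0.000191) at 24 h, by edgeR's test. The isotype group was below untreated by -0.67 ± 0.11, -1.28 ± 0.11 and -1.93 ± 0.12 at these times, the last a level 0.262 times the untreated one. The summed dendritic cell markers, mostly H2-Ab1 and Itgax, were also below untreated at 24 h, at 1664 to 2097 CPM with FcMR and 1776 to 1928 CPM with isotype. At 4 and 12 h their medians were 3195 and 2822 CPM with FcMR and 2513 and 2640 CPM with isotype, with overlapping ranges. Their part in the Irf4 result was not tested.

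Irf8, the monocyte and dendritic cell lineage factor (chr8:120736358-120756694, plus strand), was above its untreated level in both arms. Untreated libraries held 107, 83.6 and 94.2 CPM. At 4 h isotype libraries held 161, 133 and 227 CPM and FcMR libraries 255, 293 and 244 CPM, so that FcMR was higher without overlap. At 12 h both arms covered a similar range (249 to 291 and 202 to 305 CPM), and at 24 h the isotype libraries held 209, 233 and 222 CPM and the FcMR libraries 281, 266 and 297 CPM. The isotype group was above untreated by 0.88 ± 0.17, 1.505 ± 0.17 and 1.22 ± 0.17 at 4, 12 and 24 h, and each passed. FcMR against isotype passed at 4 h (0.60 ± 0.17, adjusted p = 0.0189, edgeR) but neither at 12 h (-0.02 ± 0.17, adjusted p = 0.97) nor at 24 h (0.35 ± 0.17, adjusted p = 0.167). The 4 h call was lost without FcMR 4 h replicate 2 or isotype 4 h replicate 1 (adjusted p = 0.076 and 0.0757) and in a fit of only the libraries compared (0.14).

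The make-up of the family was compared per length, as CPM per kb of each gene's longest annotated coding transcript. In untreated cells Irf5 made up 52.3% ± 2.09 (SD, n = 3) of the summed level of the 8 genes per kb, Irf1 13.8% ± 1.19 and Irf7 1.28% ± 0.10. At 4 h Irf1 led, with 34.6% ± 3.67 in isotype and 37.1% ± 2.05 in FcMR libraries. At 12 and 24 h Irf7 led, with 36.8% ± 1.68 (isotype) and 46.1% ± 5.30 (FcMR) at 12 h and 35.9% ± 1.81 and 42.9% ± 5.67 at 24 h. The share of Irf5 was lower in FcMR than in isotype libraries at each time, with no overlap: 13.3 to 14.8% against 17.01 to 24.1% at 4 h, 11.9 to 13.4% against 20.4 to 21.1% at 12 h, and 10.2 to 10.4% against 15.6 to 16.3% at 24 h. A share falls when another member rises, and the transcript in use may be shorter than the longest one, so the shares describe this scale only.

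**Figure D3:**
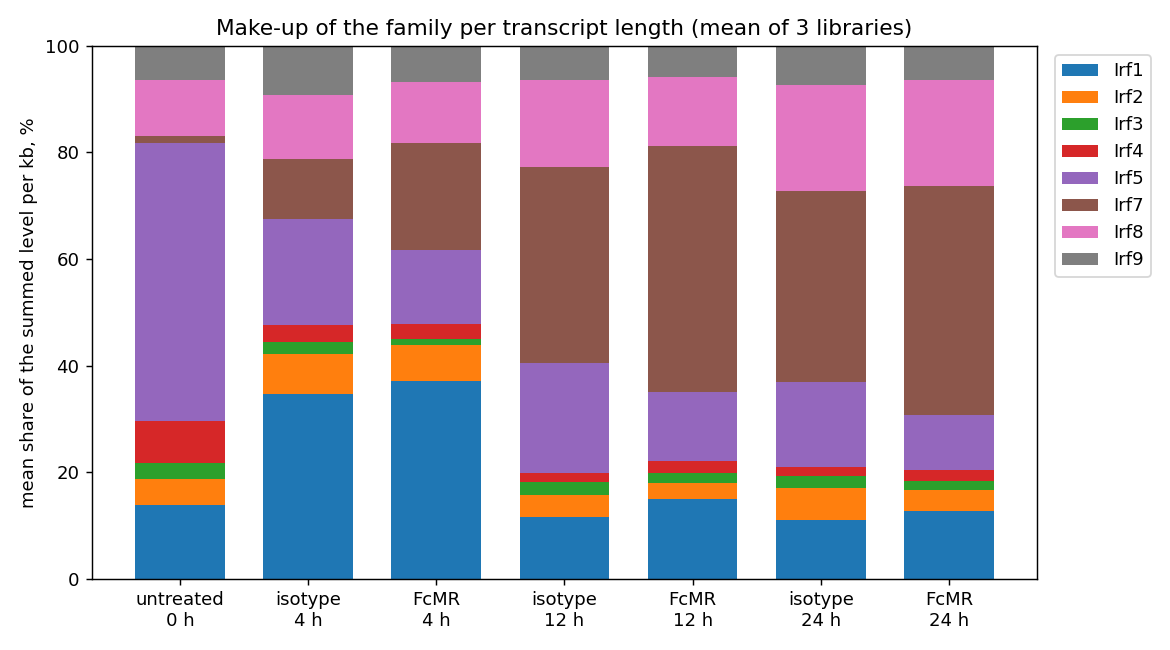
Mean share of each gene in the summed level per kb of the 8 genes (vertical axis, percent, 0 to 100) in each group of 3 libraries (horizontal axis). Irf5 holds 52.3% of the sum in untreated cells, Irf1 leads at 4 h and Irf7 at 12 and 24 h.

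Libraries of one group differed in a way that followed the GC content of transcripts, and 4 of the 8 genes tracked it closely. The GC tilt of a library is the mean log2 level of the 10% most GC-rich genes tested (at least 57.4% GC) minus that of the 10% most GC-poor (at most 41.7%), relative to all libraries. No member lies in either tail. The tilt ran from -1.64 to 0.66 within isotype 4 h, from -0.73 to 0.83 within FcMR 12 h and from -1.32 to 0.43 within FcMR 24 h, but only from -0.10 to -0.05 within isotype 24 h. Groups differed in tilt too, with 0.60 to 0.84 in isotype 12 h and -0.55 to -0.19 in FcMR 4 h libraries. Comparisons between groups can therefore hold the tilt as well. By title number, FcMR 12 h replicate 1 (-0.73) directly follows isotype 4 h replicates 1 and 2 (-0.85 and -1.64). Isotype 4 h replicate 3 (0.66) directly precedes FcMR 12 h replicates 2 and 3 (0.74 and 0.83). The cause of the tilt was not tested. Over the 21 libraries, deviations from the group mean tracked those of the tilt with r = 0.97 (rho = 0.91) for Irf7, 0.96 (0.93) for Irf5, 0.91 (0.90) for Irf3 and 0.90 (0.92) for Irf8, whose transcripts hold 55.8 to 56.9% GC. For Irf1 r was 0.57 (rho = 0.57), for Irf2 0.24 (0.19), for Irf9 0.09 (0.06) and for Irf4 -0.71 (-0.54). Without the 2 libraries of the most extreme tilt deviation, isotype 4 h replicates 2 and 3, r was 0.96 for Irf7, 0.93 for Irf5, 0.85 for Irf3, 0.82 for Irf8, 0.31 for Irf1 and -0.67 for Irf4. These correlations are descriptions, since the tilt and the levels come from the same libraries and share their scaling.

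**Figure D4:**
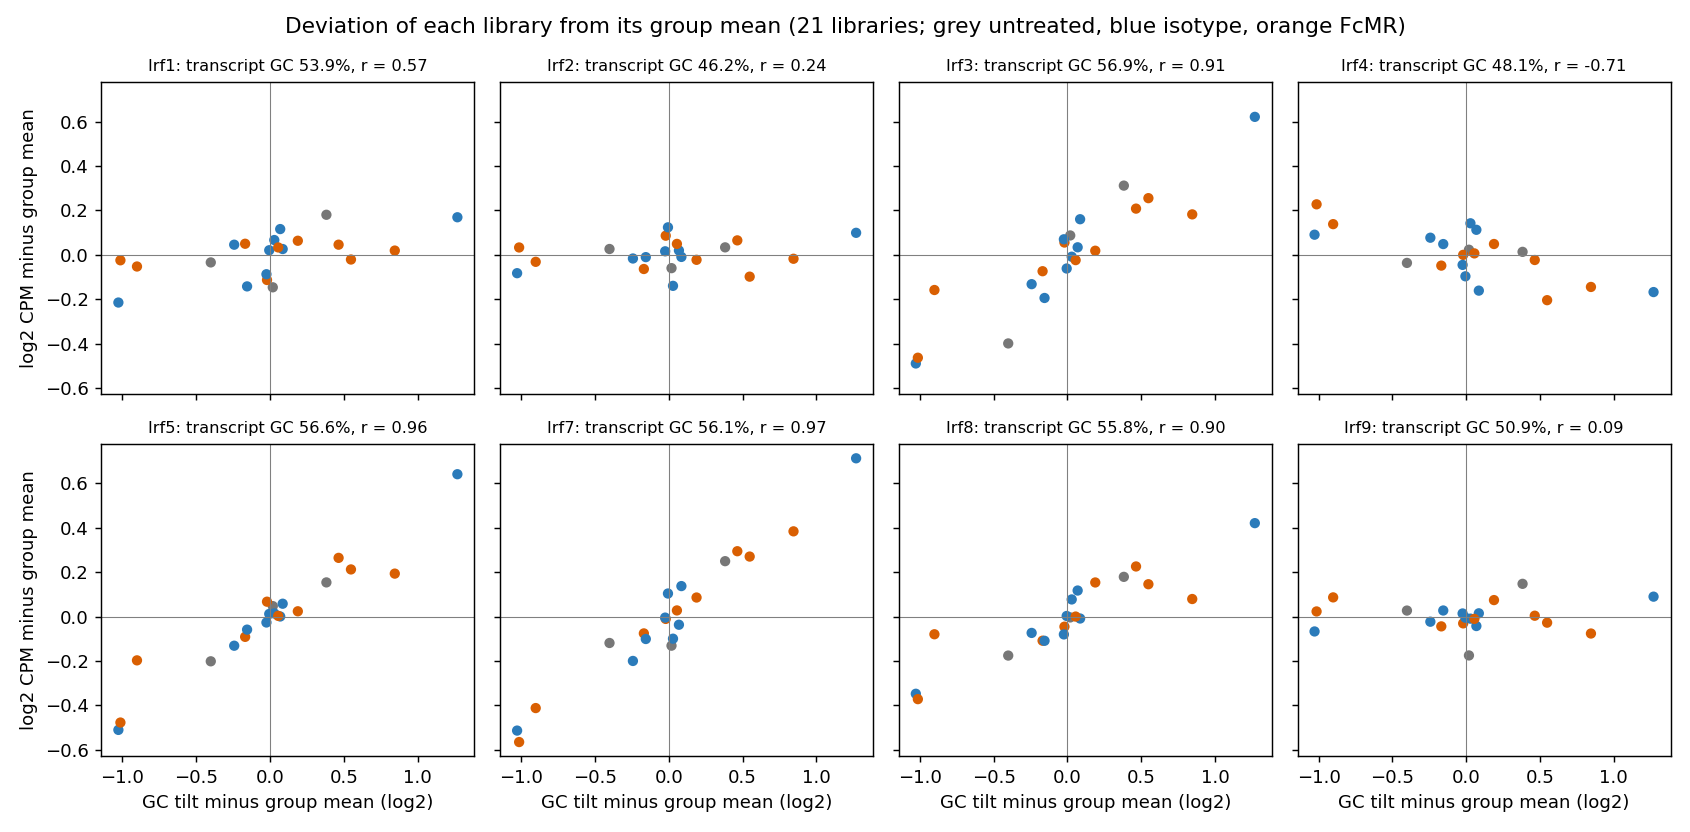
Deviation of each library's log2 CPM from its group mean (vertical axis) against the deviation of its GC tilt (horizontal axis, log2) for the 8 genes, 21 libraries each. Points of Irf3, Irf5, Irf7 and Irf8 rise along the diagonal, those of Irf2 and Irf9 stay near 0 and those of Irf4 decline.

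When each library was corrected for transcript GC content, the highest over the lowest library shrank in every group for Irf7. It widened in every group for Irf2. For the other members it shrank in some groups and widened in others. The highest over the lowest library went from 2.17 to 1.06 for Irf3 in isotype 4 h. It went from 1.05 to 1.325 for Irf1 in FcMR 12 h and from 1.13 to 1.345 for Irf2 in isotype 4 h. Within isotype 4 h, Irf5 then ran from 261 to 272 CPM in place of 155 to 345 CPM, and Irf7 from 136 to 165 CPM in place of 86.8 to 203 CPM. For FcMR 12 h, Irf7 ran from 604 to 696 CPM beside 365 to 400 CPM with isotype, and at 24 h from 530 to 570 CPM beside 301 to 342 CPM. The correction also moved group means. In isotype 12 h the mean of Irf7 went from 482 to 378 CPM and that of Irf5 from 271 to 207 CPM. The part of such moves in the calls below was not tested. On this scale FcMR was higher for Irf7 at 4 h (1.47, adjusted p = 8.35e-11), 12 h (0.80, adjusted p = 1.21e-07) and 24 h (0.78, adjusted p = 1.32e-07), and the effect differed over time (adjusted p = 8.58e-05). Irf8 passed at 24 h too (0.54, adjusted p = 0.000188), although its FcMR 24 h libraries spread more widely after correction (275 to 389 CPM, against 266 to 297 CPM before). This brought the FcMR calls to 6, 3 and 5 of the 8 genes at 4, 12 and 24 h, where 28.3%, 26.2% and 31.0% of 13440 genes passed on the same scale. In isotype against untreated, Irf3 then passed at 4 h (0.69, adjusted p = 3.35e-05) and 12 h (0.41, adjusted p = 0.00201), and Irf5 at 12 h (-0.65, adjusted p = 1.63e-07). The calls of Irf1, Irf2, Irf4 and Irf9 stayed on the same side of the threshold, and all of these values are from edgeR's test.

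The genes around the family are given by 7 lists of 122 genes in all, 2 of them in more than one list. Over all genes, 8.62%, 8.61% and 11.4% were called higher with FcMR than with isotype at 4, 12 and 24 h. The shares called lower were 9.13%, 7.49% and 9.44%, and the FcMR counts of every list stand beside these shares. Of 23 tested sensors, adaptors and kinases upstream of IRFs, 11 were higher and 0 lower with FcMR at 4 h, 8 and 0 at 12 h, and 8 and 1 at 24 h, with medians of 0.40, 0.16 and 0.21. Ifih1, the RNA sensor MDA5, had the highest fold change at each time (1.30 ± 0.13, 1.06 ± 0.13 and 0.89 ± 0.13, all passing). Ikbke, a kinase of Irf3 and Irf7, passed at 12 h (0.48 ± 0.14) and 24 h (0.42 ± 0.14), and at 4 h it was 0.40 ± 0.14 (adjusted p = 0.0537, edgeR). The lowest values were those of Tlr4 at 4 h (-0.58), which did not pass (adjusted p = 0.0647), and of Tlr9 at 12 h (-0.44), which did not pass, and at 24 h (-0.62), which did (0.048). The other Toll-like receptors of the list, chosen here after their values were seen, were higher at 4 h, Tlr3 by 1.06 and Tlr7 by 0.69. Tlr9, the DNA sensor, had been higher with FcMR at 4 h (0.63 ± 0.20).

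Among 14 tested genes for interferons, their receptors, JAKs and STATs, the calls at the 3 times were 7, 3 and 3 higher and 0, 0 and 1 lower, and the medians 0.56, 0.14 and 0.18. Ifnb1, the interferon-beta gene, was near the counting floor except in FcMR 4 h libraries, where it had 18 to 115 counts (3.11 to 4.32 CPM) beside 1 to 7 counts (0.18 to 1.004 CPM) with isotype. It was higher by 2.79 ± 0.56 at 4 h (adjusted p = 0.00194, edgeR), and at 12 h both arms were at or below 0.242 CPM. Stat2, which partners Irf9 in ISGF3, passed at 4 h (0.78 ± 0.10) but did not pass later, with 0.27 ± 0.10 after 12 h (adjusted p = 0.0938) and 0.06 ± 0.10 after 24 h (adjusted p = 0.774). Ifnar2, a chain of the interferon-alpha and -beta receptor, passed at each time with 0.58, 0.69 and 0.85. Jak2, a cytoplasmic kinase that works with cytokine receptors, did so with 0.59, 0.52 and 1.19. Ifngr1, a chain of the interferon-gamma receptor, was lower at 24 h (-0.55, adjusted p = 0.00169, edgeR). Ifng had at most 3 counts in any library and was not tested. Ifna2, Ifna4 and the sensor Mb21d1 are not analysed here.

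The 19 partners and brakes of IRFs were mixed, with 7 higher and 2 lower at 4 h, 8 and 3 at 12 h, and 7 and 0 at 24 h, and medians of 0.19, 0.17 and 0.26. Socs3, a feedback inhibitor of cytokine receptors, rose most (1.72 ± 0.30, 2.15 ± 0.31 and 1.70 ± 0.32). Usp18, the brake on the interferon receptor, was higher by 1.30, 0.74 and 0.52, each ± 0.10. Socs1, another such brake, varied widely between libraries and passed at 12 h (1.52 ± 0.50) but not at 4 h (1.20 ± 0.52) or 24 h (0.86 ± 0.66). Batf2, which pairs with Irf1, was higher at each time (1.62 ± 0.23, 1.02 ± 0.22 and 0.77 ± 0.24), and Batf, which pairs with Irf4 and Irf8, at 12 h only among the 3 times tested (1.32 ± 0.29), a difference between times that was not tested. Irf2bpl, of the family of Irf2-binding corepressors, was lower at 4 h (-1.62 ± 0.40) and 12 h (-1.14 ± 0.35). Spi1, which recruits Irf4 and Irf8 to DNA, did not pass at any time (0.07, -0.27 and -0.51), and neither did Batf3 (-0.19, -0.77 and -1.03).

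Of 20 ISRE targets of ISGF3 and Irf7, 20 were higher in isotype than in untreated cells at each time, where 20.4%, 22% and 21.3% of all genes were. The list medians were 4.16, 4.06 and 2.89, beside all-gene medians of -0.000335, 0.03 and -0.04. With FcMR 19, 16 and 15 of the 20 targets were higher again at 4, 12 and 24 h and 0 lower, with medians of 1.04, 0.71 and 0.77. Oasl1, which restrains translation of Irf7, was 555 ± 49.1 CPM with FcMR and 108 ± 55.6 CPM with isotype at 4 h (SD, n = 3, log2 2.36 ± 0.32). Ifit1, an RNA-binding antiviral effector, led at 12 and 24 h (1.35 ± 0.17 and 1.66 ± 0.17), whereas Oas3 was at 0.06 and 0.05 there and did not pass. Mx1, a dynamin-like antiviral protein, was higher at 4 h (0.99 ± 0.14) and 12 h (0.60 ± 0.14), and at 24 h it had the lowest value of the list (-0.06 ± 0.14, not passing). Oas2 was the gene that did not pass at 4 h (0.32, adjusted p = 0.159, edgeR).

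The 20 targets of Irf1 and antigen processing genes were higher in 13, 11 and 11 cases at 4, 12 and 24 h and lower in 0, with medians of 0.87, 0.59 and 0.50, led by Nos2 at 4 h (3.20 ± 0.25) and 24 h (3.36 ± 0.31) and by Il12b at 12 h (3.51 ± 0.17). Casp1, the protease that matures interleukin-1 beta, was at 0.15 at 4 h, which did not pass, and was higher at 12 h (0.77) and 24 h (0.67). Nlrc5, a transactivator of MHC class I genes, was higher at 4 h (1.10) and not called at 12 h (0.33) or 24 h (0.14). For Psmb9, an immunoproteasome subunit, no FcMR difference passed (0.59, 0.16 and 0.37). The 10 cytokine targets of Irf5 were all higher at 4 and 12 h, and 7 were at 24 h, with medians of 2.96, 2.43 and 2.48. Irf5 RNA itself had no FcMR difference that passed. Il6 was 1312 ± 23.7 CPM with FcMR and 132 ± 26.1 CPM with isotype at 4 h (3.31 ± 0.23). Il23a, a subunit of interleukin-23, had the highest value at 4 h (3.81 ± 0.19), and Tnf was higher at each time (2.45, 1.74 and 0.55, each ± 0.11). Ccl4, a chemokine, went from 3.16 ± 0.21 at 4 h and 0.87 ± 0.19 at 12 h, both passing, to -0.42 ± 0.21 at 24 h, which did not pass. Il12a, a subunit of interleukin-12, had 3 to 5 counts in isotype 24 h libraries and 98 to 371 counts (10.1 to 13.6 CPM) in FcMR 24 h libraries. These cytokines are also driven by NF-kB and other factors, and Il12b stands in both lists.

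The 13 tested genes tied to Irf4 and alternative activation split. Ccl22, a chemokine of dendritic cells and alternatively activated macrophages, was higher with FcMR at 4, 12 and 24 h (0.91, 1.21 and 1.89, each ± 0.11). With FcMR 4, 2 and 3 genes of the list were higher and 0, 2 and 1 lower. Over all genes the shares were 8.62%, 8.61% and 11.4% higher and 9.13%, 7.49% and 9.44% lower. List medians were 0.20, 0.04 and -0.07. In isotype against untreated cells 6, 9 and 9 of the 13 genes were lower, where 15.2%, 19.6% and 20.9% of all genes were, and 1, 2 and 1 were higher, with medians of -0.58, -1.42 and -2.21. Klf4, a factor of alternative activation, was lower with FcMR at 12 h (-1.25 ± 0.13). Retnla at 4 h (-0.27 ± 0.54) and Cd209a at 24 h (-1.16 ± 0.83) had the lowest values there, and neither passed. Cd209a had 1 count in each isotype 24 h library and 0 to 1 count in FcMR 24 h libraries, so its value lies at the counting floor.

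**Figure D5:**
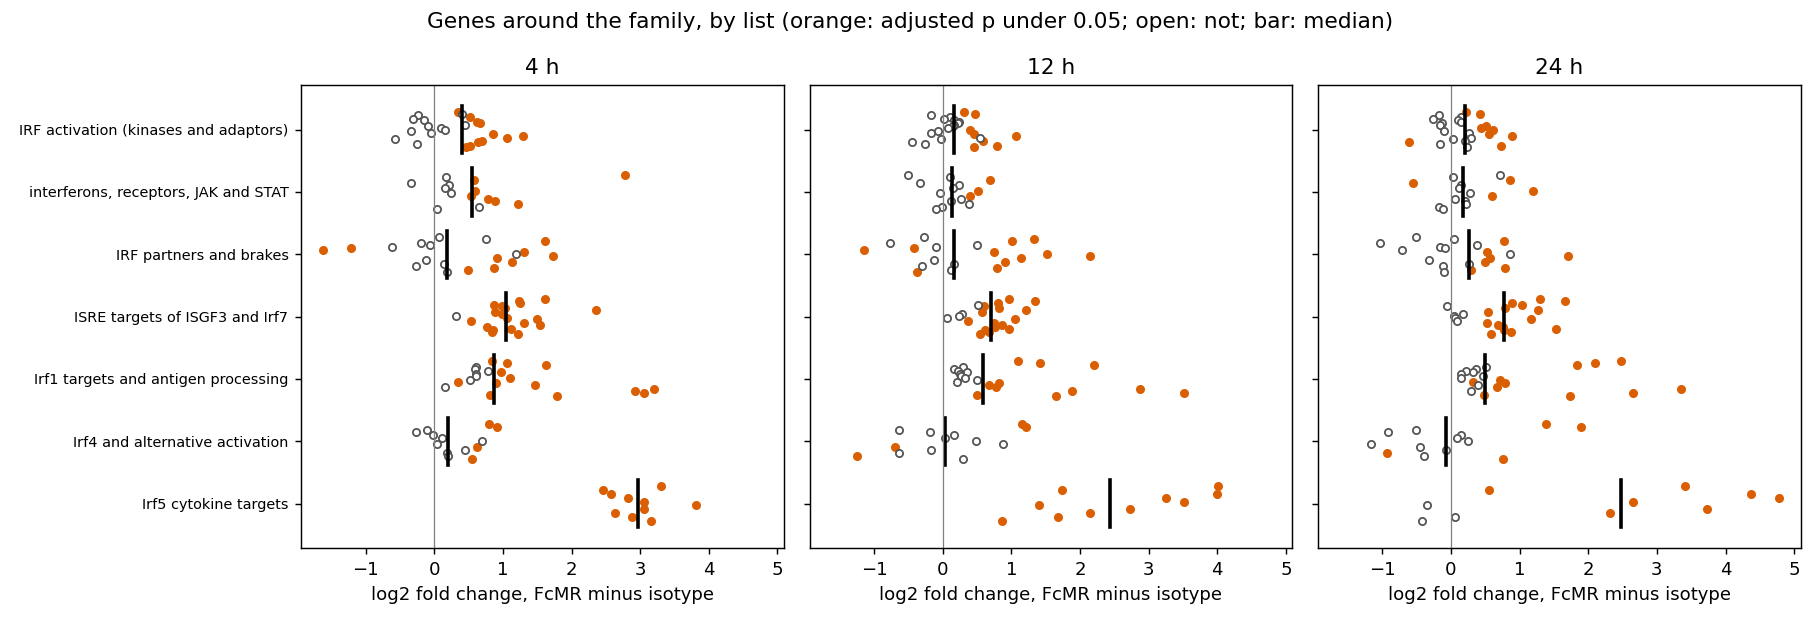
Log2 fold change of FcMR against isotype (horizontal axis) for each tested gene of the 7 lists (vertical axis) at 4, 12 and 24 h. Orange points passed at an adjusted p under 0.05, open points did not, and black bars are list medians, which at 4 h run from 0.19 for IRF partners and brakes to 2.96 for Irf5 cytokine targets.

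Each gene's course over the 21 libraries was compared with those of 10681 other protein-coding genes (mean log2 CPM 1 or more), by Pearson's r of log2 CPM, as a description without a test. The 3 genes most like Irf7 were Oas1g (r = 0.99), Oas3 and Epsti1 (both 0.98), and those most like Irf9 were Cmpk2, Rsad2 and Tpst1 (0.99, 0.99 and 0.98). For Irf1 they were Clic4 (0.99), Trim56 and Zc3hav1 (both 0.98), and for Irf2 Crybg1 (0.97), Rnf34 (0.96) and Slfn9 (0.95). Irf8 was most like Irf7 itself (0.96), then Mmp25 (0.95) and Oas1g (0.94), and Irf4 most like Car4, Ndel1 and the chemokine Ccl17 (0.96, 0.96 and 0.94). Irf5 came closest to Sun2 (0.98), Rab11b and St6galnac4 (both 0.97), and Irf3 to Cyb561d2, Atf6b and Akt1s1 (0.94, 0.94 and 0.93). All points share the libraries and hence their depth and GC tilt. Within groups the tilt moves with the level of Irf3, Irf5, Irf7 and Irf8, and against that of Irf4 (r = -0.71).

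Within the family, Irf1, Irf2 and Irf9 ran together over the 21 libraries (r = 0.89 for Irf1 with Irf2, 0.90 for Irf1 with Irf9 and 0.87 for Irf2 with Irf9), and Irf4 ran against Irf7 (r = -0.55). These values hold the GC tilt too, which Irf7 followed and Irf4 ran against. Exons of Irf3, Irf5, Irf7 and Irf1 overlap those of a gene on the other strand (Bcl2l12, Tnpo3, Phrf1 and Gm17334), and exons of Irf9 overlap those of Rnf31 on the same strand. Whether counting used the strand is not given in the sources used here, so reads of these overlaps could be shared.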

How the data were processed

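RNA-seq libraries were prepared with a TruSeq kit and read as 75 base single ends, per the labels' protocols. Per the submitters' processing notes the tools were CASAVA 1.8.2, kallisto 0.44.0 and DESeq2, and the builds mm10 and GRCm38. The table that the authors deposited as raw holds whole numbers for 23250 genes, taken here as estimated counts, so no rounding was needed. The analysis plan had assumed plain counts, and its test suits estimated counts too. A second table deposited by the authors holds a normalized signal, equal to the first divided by a factor per gene and library. It served only as an alternative scaling. Identifiers without version were matched to a table of gene names, which gave symbols for 23187 genes. GENCODE M21 (GRCm38) gave positions and transcript GC content. Promoter windows came from RefSeq.

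Groups were read from the sample titles. All 21 libraries entered 1 model of edgeR (version 4.0.16, run in R 4.3.3), tested by quasi-likelihood F, with TMM scaling and filterByExpr (minimum count 10, 13468 genes). Benjamini-Hochberg adjustment ran over all genes, threshold 0.05. Standard errors come from the quasi-likelihood F. Log2 CPM used a prior count of 2. The scripts were tested on simulated data. Totals ranged 12.1-fold, and floors cover counting error only, since reads carry no molecular identifiers. Alternatives were RLE factors, no filter, DESeq2 1.42.0, a filter at 10 counts on average, only the libraries compared, a replicate block, each library left out, the authors' factors, GC correction, and leaving out FcMR 12 h replicate 1 with isotype 4 h replicate 3, whose title numbers are out of group order. GC correction with the block was added after seeing the data. Genes named are the 8 members, the 3 most like each, the highest and lowest of each list at each time, and 11 fixed by name, of which 1 is not reported here. Members, lists and names were chosen with earlier results of these data known. No sequence of the encoded proteins was used here.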

Additional observations from a re-analysis of the deposited data

Results flagged for a closer look

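Irf2 was singled out because its response to FcMR differed between times. The joint test of the FcMR effect at 4, 12 and 24 h gave an adjusted p of 8.12e-05 (edgeR's quasi-likelihood test), with effects of 0.55, -0.22 and -0.27 on the log2 scale. At 4 h all 3 FcMR libraries lay above all 3 isotype libraries, and at 12 and 24 h all lay below. The adjusted p of this test ran from 3.96e-13 to 0.00659 over the 28 alternative settings. Deviations of Irf2 within groups had r = 0.24 with the GC tilt over the 21 libraries, and after GC correction the joint adjusted p was 4.05e-05. Of the 8 genes, 1 passed this test, where 11% of all genes tested did. Without isotype 4 h replicate 3, 4 members passed it, where 2322 of 13468 genes did. After GC correction 2 members passed it, where 23.1% of genes did.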

How the results depend on the processing

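Of 480 recomputed fold changes of member comparisons that had passed, 461 kept direction and call, 19 lost the call and 0 reversed. Of those that had not passed, 28 gained a call and 33 changed sign without one. With GC correction the genes called in FcMR against isotype were 3803 at 4 h, 3519 at 12 h and 4162 at 24 h (from 2390, 2169 and 2813), and 3099 in the joint test over time (from 1484). Members called then were 5 at 24 h, beside 31.0% of all genes, and 2 in the joint test, beside 23.1%. GC correction with the replicate block gave 4019, 3681 and 4282 genes at 4, 12 and 24 h and 3303 jointly. It called 5 members at 24 h, beside 31.9% of all genes, and 3 jointly, beside 24.6%. Without both libraries out of title order, 3942 genes were called at 4 h, 3541 (26.3%) at 24 h and 2620 (19.5%) jointly, and 5 members at 24 h and 4 jointly (Irf2, Irf5, Irf7 and Irf8). Irf5 was then called at 4 h (0.50, adjusted p = 0.00826). Fitting only the libraries compared gave 791 genes at 4 h and 2837 for isotype against untreated at 4 h, and no filter gave 925 in the joint test. The cause of these shifts was not tested.

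At 4 h the split of 1161 higher and 1229 lower genes became 1236 and 612 with the authors' factors, 1509 and 835 with DESeq2, 1412 and 839 with RLE factors, 2342 and 1461 with GC correction, 1331 and 439 with no filter, and 603 and 188 with only the libraries compared. Without isotype 4 h replicate 2 it was 1145 and 652. For isotype against untreated at 4 h, 2743 higher and 2049 lower became 1923 and 2303 with no filter. Leaving out 1 library at a time gave 1601 to 3209, 1591 to 1879 and 2126 to 3198 genes for FcMR against isotype at 4, 12 and 24 h, 973 to 2322 jointly, and 3848 to 6250, 4597 to 5040 and 4825 to 5156 for isotype against untreated. Members called ran from 4 to 6, 2 to 3, 2 to 3, 1 to 4, 6 to 7, 6 to 7 and 6 to 6 in that order. Without isotype 4 h replicate 3, 3209 genes passed at 4 h, 2322 passed jointly and the joint test called 4 members. Without FcMR 4 h replicate 2, 973 genes passed jointly.

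Replicate numbers are shared by all groups, and the labels do not say whether they mark a mouse or a day. Deviations of same-numbered FcMR and isotype libraries had mean correlations of -0.07, 0.11 and 0.01 at 4, 12 and 24 h. In each comparison 1 or more pairs were under 0.1. These values cannot decide whether equal numbers share a source, since deviations within a group also hold the GC tilt. With the replicate block, 2541, 2290 and 2911 genes were called at 4, 12 and 24 h, 1620 jointly, and 5072, 5753 and 5849 for isotype against untreated. Members called were 6, 2, 3 and 1, and 7, 7 and 6. Irf3 in isotype against untreated at 12 h was called (adjusted p = 0.0457), and the block changed no other member call.

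Depth limits low genes most: 3 counts stand for up to 0.542 CPM in the smallest library, and Ifnb1 did not exceed 1.004 CPM outside FcMR 4 h.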
